A study of Mus musculus with 56 samples.

Results

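The skeletal muscle contractile genes are 41 genes of striated muscle whose rows were taken from the deposited matrix by their Ensembl identifiers, out of 53431 features in all. They comprise 10 thick filament genes, 9 thin filament genes, 9 genes of the Z-disc and of the giant sarcomere proteins, 7 genes of calcium handling and 6 genes of energy and oxygen supply. Of these, 14 are typical of fast fibres, 8 of slow fibres and 19 are shared by fibre types. RNA was sequenced from homogenised front paws of 56 male DBA/1 mice, each giving 1 library, in a model of collagen-induced arthritis (CIA) where chicken type II collagen is injected on days 1 and 21 to bring on inflammation of the joints. The combination group (13 mice) received the TNF antibody XT3.11 at 30 mg/kg together with the IL-6 antibody MP5-20F3 at 10 mg/kg, the anti-IL-6 group (13 mice) received MP5-20F3 at 10 mg/kg, the anti-TNF group (13 mice) received XT3.11 at 30 mg/kg, and the isotype group (13 mice) received a control IgG1 at 30 mg/kg. All 4 of these groups were immunised and then injected into the peritoneum 2 times a week for 5 weeks from day 21, and the no CIA group (4 mice) is labelled as free of CIA and as having had no treatment. Paws were taken on day 91, so that dosing had ended, and the labels do not state how old the mice were.

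In the sarcomere, myosin motors of the thick filament pull on actin of the thin filament when calcium binds troponin and moves tropomyosin aside. Fast and slow fibres build the same machine from different gene copies, so that most myosin chains, troponin subunits and calcium stores have a fast and a slow form. Front paws of mice hold small intrinsic muscles beside skin, bone, joint, tendon and nerve, and the genes described here report on that muscle within a mixed tissue. In such bulk samples, fewer muscle cells and less RNA per muscle cell cannot be told apart.

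Estimated depth was 39.9 to 54.8 M fragments per library (M, mega). The defining markers of skeletal muscle (Acta1, Ckm, Myh4, Tnnt3 and Ryr1) were present in every library, whereas the summed level of 5 heart muscle markers (Myh6, Nppa, Tnni3, Myl7 and Nppb) lay between 1.92 and 6.67 FPKM, with Nppa listed at 0 in 14 libraries. Libraries that stood apart in their fast to slow balance were combination replicate 6 and isotype replicate 6, each in some pairs. Combination replicate 6 was the highest library in every pair, though in some of them by little. Group differences in the ratios of fast to slow isoforms are given with and without these libraries. Mouse numbers in the titles run in blocks by group except for mouse 2, labelled as anti-TNF, and mouse 20, labelled as anti-IL-6. Values without these mice are given where they matter.

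Promoters of 32 of the 41 members were found in RefSeq (GRCm38.p6), as windows from 250 bases before to 50 bases after a transcription start. The sequences below are those of genes whose values are followed through the results: the fast myosin Myh4, the thin filament actin Acta1, the creatine kinase Ckm and the slow troponin subunits Tnnt1 and Tnni1. Capitals mark matches, on either strand, to CAGCTG (a form of the E-box that muscle regulatory factors such as MyoD bind), TATAAA, the MEF2 site and the CArG box to which serum response factor binds. In Myh4, 1 of the 3 TATAAA matches lies on the other strand within the MEF2 match.
Myh4 promoter (chr11:67237562-67237861, plus strand): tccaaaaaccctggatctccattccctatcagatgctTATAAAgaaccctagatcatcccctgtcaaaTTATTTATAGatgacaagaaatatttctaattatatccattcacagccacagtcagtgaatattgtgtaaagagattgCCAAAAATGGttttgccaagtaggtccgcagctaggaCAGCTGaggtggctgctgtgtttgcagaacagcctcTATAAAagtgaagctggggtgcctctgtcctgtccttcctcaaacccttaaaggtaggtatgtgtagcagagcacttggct
Acta1 promoter (chr8:123894726-123895025, minus strand): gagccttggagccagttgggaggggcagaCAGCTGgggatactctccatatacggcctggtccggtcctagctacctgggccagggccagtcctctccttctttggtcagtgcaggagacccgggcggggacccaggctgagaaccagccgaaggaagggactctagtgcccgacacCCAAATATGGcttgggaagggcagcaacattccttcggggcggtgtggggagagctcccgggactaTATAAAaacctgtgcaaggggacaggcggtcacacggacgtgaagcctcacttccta
Ckm promoter (chr7:19410844-19411143, plus strand): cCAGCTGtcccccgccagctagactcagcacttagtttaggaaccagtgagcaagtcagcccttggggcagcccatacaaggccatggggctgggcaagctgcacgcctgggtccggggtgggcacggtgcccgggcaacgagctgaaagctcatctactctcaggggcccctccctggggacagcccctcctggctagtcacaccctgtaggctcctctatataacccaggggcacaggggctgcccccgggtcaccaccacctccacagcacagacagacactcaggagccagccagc
Tnnt1 promoter (chr7:4515926-4516225, minus strand): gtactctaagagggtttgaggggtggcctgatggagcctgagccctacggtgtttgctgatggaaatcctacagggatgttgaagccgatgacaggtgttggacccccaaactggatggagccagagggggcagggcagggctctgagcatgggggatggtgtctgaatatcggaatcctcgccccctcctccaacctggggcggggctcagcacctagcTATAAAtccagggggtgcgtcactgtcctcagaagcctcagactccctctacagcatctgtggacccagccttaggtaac
Tnni1 promoter (chr1:135799171-135799470, plus strand): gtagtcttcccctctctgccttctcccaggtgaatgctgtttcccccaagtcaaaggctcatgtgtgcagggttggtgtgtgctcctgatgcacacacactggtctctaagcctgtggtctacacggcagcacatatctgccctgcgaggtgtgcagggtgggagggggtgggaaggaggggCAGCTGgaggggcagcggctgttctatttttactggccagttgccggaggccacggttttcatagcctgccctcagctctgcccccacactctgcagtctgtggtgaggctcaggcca
CAGCTG was found in 51.3% of the 39 member promoters and in 16.3% of the 32851 mouse promoters in the table. The MEF2 site was found in 15.4% of member promoters against 3.19% of all, the CArG box in 12.8% against 1.63%, and TATAAA in 18.0% against 13.6%. Some genes have more than 1 window, and overlapping windows can hold the same site, as for the CArG box of Ldb3. By gene, CAGCTG was found for 17 of the 32 members, the MEF2 site for 6, the CArG box for 4 and TATAAA for 7. By fibre type, CAGCTG was present for 5 of 10 fast genes and 3 of 8 slow genes with a promoter in the table. These matches describe letters in the windows and were not related to binding.

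Levels are given in FPKM (fragments per kilobase of transcript per M mapped fragments), a unit per length that allows genes to be set side by side. Over all libraries Acta1, the skeletal actin of the thin filament, was the most abundant member with a mean of 3581 FPKM. It was followed by Tnnt3 and Tnnc2, the fast troponin T and troponin C, at 3025 and 2146 FPKM, and by the tropomyosin gene Tpm1 at 1863 FPKM. The lowest were the slow myosin light chain Myl3 at 6.91, the slow calsequestrin Casq2 at 4.06 and the slow myosin heavy chain Myh7 at 0.642 FPKM. Together the 41 members made up 0.497% to 12.4% of the summed FPKM of a library, a 25.0-fold range. Fast genes took 0.234% to 7.10% and slow genes 0.0144% to 0.224%.

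The members' share of the summed FPKM had a lowest, median and highest value of 1.23%, 4.83% and 12.3% in combination paws, 0.497%, 2.62% and 8.48% in anti-IL-6 paws, 0.670%, 2.53% and 12.4% in anti-TNF paws and 0.799%, 4.83% and 8.43% in isotype paws. In no CIA paws it was 2.72%, 6.28%, 9.88% and 6.00%. The groups overlapped broadly, and the lowest library without CIA lay below the median of combination and isotype paws.

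**Figure D1:**
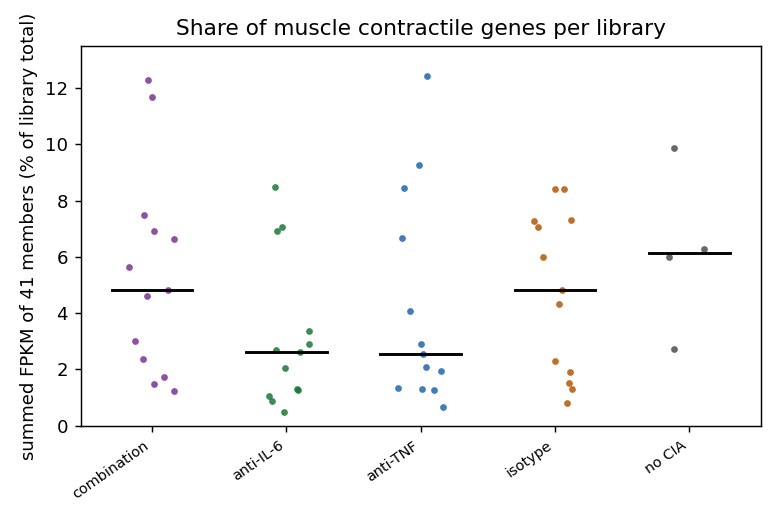
Share of the 41 muscle contractile genes in the summed FPKM of each library (vertical axis, percent) by group, with 1 point per mouse and a bar at the group median. Medians were 4.83% in combination, 2.62% in anti-IL-6, 2.53% in anti-TNF, 4.83% in isotype and 6.14% in no CIA paws, and the points of every group overlap those of the others.

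Among thick filament genes, Myh1 (the IIx fast myosin heavy chain) had a lowest, median and highest level of 216.8, 712.9 and 1812 FPKM in combination paws, 71.2, 373.1 and 1355 in anti-IL-6 paws, 102.7, 373.6 and 1845 in anti-TNF paws and 123.1, 837.2 and 1334 in isotype paws, against 438.5, 993.4, 1614 and 934.7 in the 4 no CIA paws. Anti-IL-6 and anti-TNF medians were below the other 3 groups, and every group overlapped every other. Myh4, the IIb myosin of the fastest fibres, ranged over 40.2 to 665.2 FPKM in combination, 6.10 to 319.3 in anti-IL-6, 9.97 to 480.7 in anti-TNF, 21.9 to 446.7 in isotype and 57.1 to 294.2 in no CIA paws. Myh7, the slow and cardiac myosin, reached at most 2.23 FPKM and its mean was under 1 FPKM in every group, so it was the single member left untested. The regulatory light chains Mylpf (fast) and Myl2 (slow, shared with heart) averaged 1746 and 94.99 FPKM over all libraries.

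For the thin filament, Acta1 was at 685.4, 4294 and 10908 FPKM (lowest, median and highest) in combination paws, 374.7, 1693 and 6808 in anti-IL-6 paws, 590.5, 1783 and 11038 in anti-TNF paws and 438.4, 4278 and 6851 in isotype paws, against 2310, 5521, 7945 and 5018 FPKM in no CIA paws. Tnni2, the fast inhibitory troponin subunit, had medians of 1764 in combination, 839.8 in anti-IL-6, 799.9 in anti-TNF, 1540 in isotype and 2131 FPKM in no CIA paws. Its slow counterpart Tnni1 had 7.35, 42.1 and 212.0 FPKM in combination paws, 16.7, 55.7 and 115.7 in anti-IL-6 paws, 18.8, 44.9 and 174.0 in anti-TNF paws and 18.3, 31.3 and 149.3 in isotype paws, against 108.3, 178.9, 106.7 and 99.5 in no CIA paws. For Tnni1 all 4 no CIA libraries lay above each immunised group's median, whereas the highest library of every immunised group lay above the lowest without CIA.

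Among genes of the Z-disc and the giant proteins, Ttn (titin, the molecular spring) had medians of 25.2 in combination, 8.98 in anti-IL-6, 9.49 in anti-TNF, 20.1 in isotype and 26.2 FPKM in no CIA paws, and Neb (nebulin, which lines the thin filament) had 76.1, 29.8, 29.2, 67.4 and 86.7 FPKM in the same order of groups. Actn2 and Actn3, the alpha-actinins that cross-link actin at the Z-disc, averaged 113.9 and 153.9 FPKM over all libraries, Actn3 being the form of fast fibres. Over single libraries Actn2 ran from 11.6 to 346.9 FPKM, with its highest level in anti-TNF replicate 7, and Actn3 from 11.9 to 573.2 FPKM, with its highest level in combination replicate 6. Des, the intermediate filament desmin, averaged 217.5 FPKM.

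Calcium handling was led by Pvalb, the calcium buffer parvalbumin of fast fibres, and by Atp2a1, the fast calcium pump of the sarcoplasmic reticulum, with means of 1455 and 1388 FPKM. The release channel Ryr1 and its voltage sensor Cacna1s averaged 29.2 and 19.5 FPKM. Of the energy genes, Ckm, the muscle creatine kinase, had 335.0, 1348 and 4346 FPKM (lowest, median and highest) in combination paws, 117.6, 753.7 and 2761 in anti-IL-6 paws, 147.7, 649.5 and 4333 in anti-TNF paws and 200.4, 1303 and 2676 in isotype paws, against 672.0, 1850, 3147 and 1911 FPKM in no CIA paws. Mb, the oxygen store myoglobin, averaged 1447 FPKM.

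**Figure D2:**
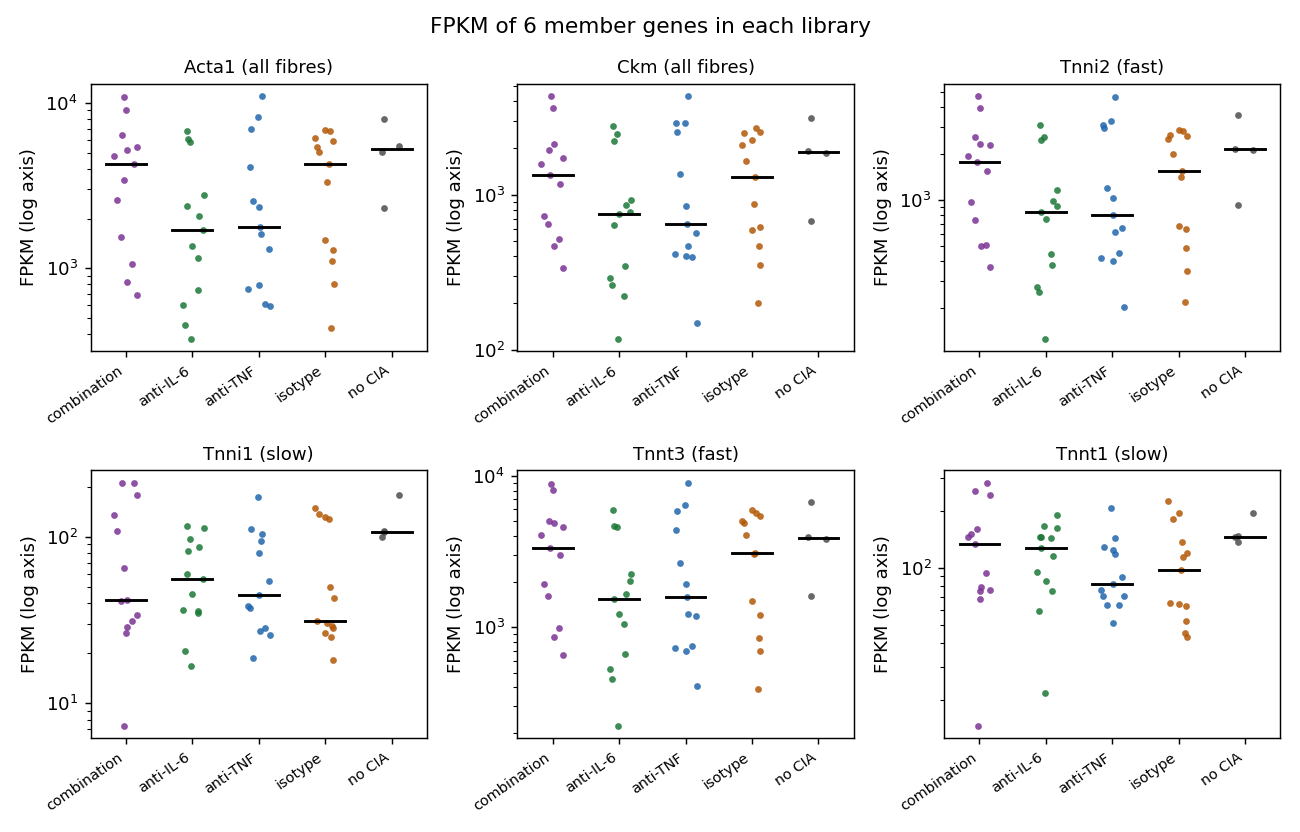
FPKM (vertical axis, log scale) of Acta1, Ckm, Tnni2, Tnni1, Tnnt3 and Tnnt1 in each library by group, with bars at the medians. Ckm spans 117.6 to 4346 FPKM over all mice. For the slow subunit Tnni1 the 4 no CIA libraries lie between 99.5 and 178.9 FPKM, above the median of every other group. The highest of them lies above all anti-IL-6, anti-TNF and isotype libraries.

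Spread between mice of the same group was large. The SD of log2(FPKM + 1) within groups had a median of 1.26 over the 40 tested members (range 0.52 to 1.63), beside a median of 0.22 over all 14700 features tested. It was 1.29 for fast and 0.94 for slow genes. Groups accounted for a median of 10.1% of a member's variance, beside 9.45% over all features. Many members were extreme in the same libraries. The library with the lowest Ckm in its group was also the lowest for 29 of the 40 other members in combination, 38 in anti-IL-6, 30 in anti-TNF, 35 in isotype and 36 in no CIA paws. At the other end, the library with the highest Ckm was also the highest for 19 of the 40 in combination, 24 in anti-IL-6, 35 in anti-TNF, 9 in isotype and 35 in no CIA paws. Of the 14 fast genes, between 11 and 14 shared the lowest library and between 7 and 14 the highest one. Of the 8 slow genes 1, 7, 4, 3 and 4 shared the lowest library, and 0, 3, 4, 0 and 3 the highest one, in combination, anti-IL-6, anti-TNF, isotype and no CIA paws. Genes that share libraries in this way do not count as separate observations of a group.

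The comparison of immunised mice with no CIA mice asked how muscle transcripts stood in paws of immunised mice. Every comparison with no CIA uses the same 4 libraries. Levels of most members were lower in immunised paws, and no member passed the test (limma adjusted p under 0.05) in any of these comparisons. In isotype against no CIA paws all 40 tested members were lower, with a median log2 difference of -0.72 (range -1.30 to -0.02), beside a median of 0.03 over all features, of which 44.2% were lower. None of the 40 was called, beside 0.156% of all features, and the smallest adjusted p among members was 0.283. At an unadjusted p under 0.05 there were 2 lower members, Tnni1 and Tnnc1, beside 4.73% of all features called lower by that rule. Tnni1 differed by -1.30 ± 0.602 (SE, limma adjusted p = 0.283) and Tnnc1, the slow troponin C, by -1.10 ± 0.529 (limma adjusted p = 0.291). Actn2 differed by -1.20 ± 0.703 and the fast heavy chain Myh2 by -1.07 ± 0.718. Values closest to 0 were those of Casq2 at -0.02 ± 0.290 and of its fast counterpart Casq1 at -0.18 ± 0.714, the calcium-binding calsequestrins of the sarcoplasmic reticulum. Without no CIA replicate 3 the median of the members was -0.45, with 5 members higher and 35 lower.

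In anti-TNF against no CIA paws all 40 were lower as well, by a median of -1.004 (range -1.50 to -0.23; all features 0.03, with 43.2% lower). No call was made, beside 0.551% of features, and 2 members (Actn2 and Tcap) were lower at an unadjusted p under 0.05, beside 4.14% of features. The smallest adjusted p was 0.235, for Actn2 at -1.50 ± 0.703 (limma). Myot, a Z-disc protein named myotilin, differed by -1.43 ± 0.797 and Myh2 by -1.33 ± 0.718. In anti-IL-6 against no CIA paws the 40 members were lower by a median of -1.34 (range -1.80 to -0.24; all features 0.07, with 38.0% lower). The adjusted test called 0 of them, beside 0.558% of features, although 17 members were lower at an unadjusted p under 0.05, beside 6.90% of features. Actn2 differed by -1.80 ± 0.703 (limma adjusted p = 0.125) and Tcap, the titin cap protein of the Z-disc, by -1.65 ± 0.631 (limma adjusted p = 0.123). The other 2 of the 3 largest differences were those of Myot at -1.80 ± 0.797 and of the slow light chain Myl2 at -1.69 ± 0.917 (limma adjusted p = 0.2075, unadjusted p = 0.071). Mb differed by -1.63 ± 0.674, Myh2 by -1.59 ± 0.718 and Acta1 by -1.53 ± 0.757. By role, the 17 included 8 of the 9 Z-disc and giant protein genes. By fibre type they were 12 of the 19 shared genes, 5 of the 14 fast genes and 0 of the 7 tested slow genes. The median difference of the slow genes was -0.89 (range -1.69 to -0.24). Slow Tnni1 at -1.18 ± 0.602 (limma unadjusted p = 0.0557) and fast Tnni2 at -1.415 ± 0.728 (limma unadjusted p = 0.0571) both lay just outside this cut.

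In combination against no CIA paws 39 members were lower and 1 higher, with a median of -0.48 (range -1.03 to 0.07; all features 0.02, with 45.9% lower). Again 0 were called, beside 0.156% of features, and 0 were lower at an unadjusted p under 0.05, beside 2.53%. Tnni1 differed by -1.03 ± 0.602 and Casq1 by -0.03 ± 0.714. Without no CIA replicate 1 the median was -0.84, and without no CIA replicate 3 it was -0.20. No member separated any immunised group from the no CIA group without overlap (0 of 40), beside 1.98% of features for isotype, 0.823% for anti-TNF, 2.86% for anti-IL-6 and 1.5% for combination paws.

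Marker levels of other tissues are given beside these values as ranges that were not tested. Summed levels of 6 neutrophil markers were 35.9 to 1035 FPKM in combination, 38.7 to 2152 in anti-IL-6, 29.4 to 2551 in anti-TNF and 23.4 to 1184 in isotype paws, against 17.6 to 46.3 in no CIA paws, and none of the 6 was at 0 in all libraries of a group. The sum of 4 fibroblast markers was 1158 to 6226, 1086 to 7398, 947.0 to 6526 and 1200 to 7410 FPKM in these 4 immunised groups, in that order, and 1044 to 1400 without CIA. Of these markers Col1a1, which osteoblasts also make, reached 3246 FPKM, and Dcn reached 1429 FPKM. A sum of 4 osteoblast markers was 67.3 to 1392, 62.3 to 1637, 43.8 to 2060 and 62.1 to 1446 FPKM in that order, and 36.6 to 293.5 without CIA. For other lists, the sum of 4 adipocyte markers had medians of 264.8, 220.5, 248.2 and 253.7 FPKM in the same groups and 300.9 without CIA, and that of 5 epidermis markers had medians of 10643, 10795, 11804 and 12262 FPKM, against 14487 without CIA. Ranges of all these sums overlapped between each immunised group and the no CIA group. The part of these tissues in the muscle values was not tested. The no CIA libraries all carry index numbers of 1 stretch of the titles, shared with 2 isotype libraries. Within that stretch isotype minus no CIA gave a median member difference of -0.98, with 38 members lower and 2 higher.

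**Figure D3:**
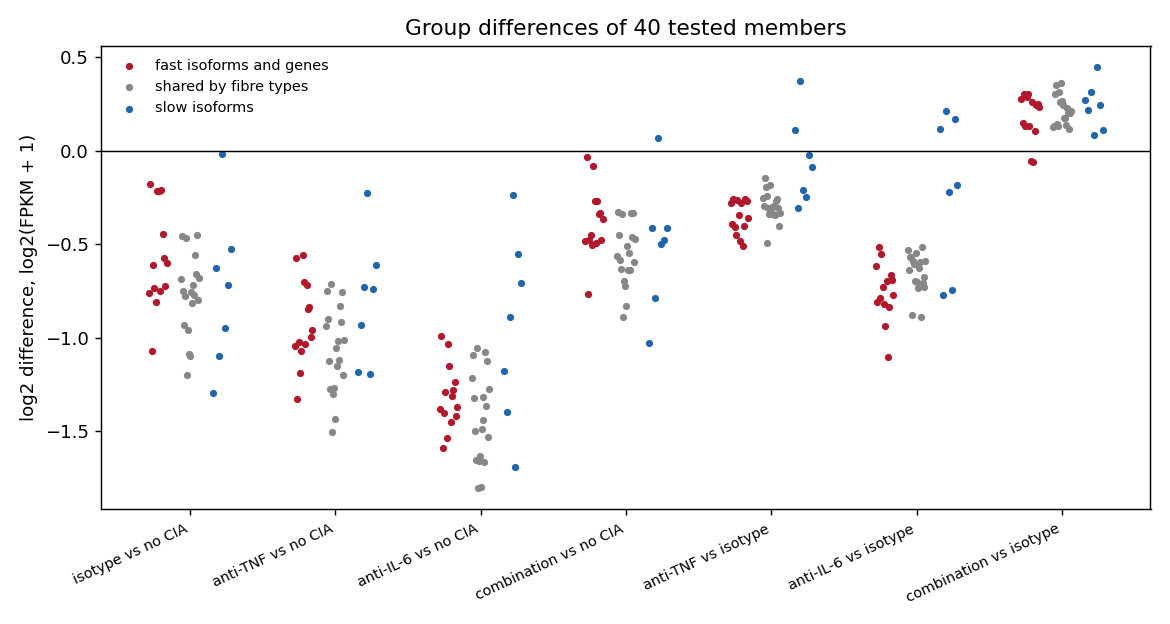
Log2 differences of the 40 tested members (vertical axis, on the log2(FPKM + 1) scale) in 7 comparisons, with fast genes in red, shared genes in grey and slow genes in blue. Against no CIA nearly all points lie below 0, with member medians from -0.48 to -1.34. In anti-IL-6 against isotype the fast genes lie below 0, while of the slow genes 4 lie below 0 and 3 above it.

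Comparisons of the antibody arms with isotype set each arm against the control antibody in immunised paws, and they share the 13 isotype libraries. In anti-TNF against isotype paws 38 members were lower and 2 higher, with a median of -0.30 (range -0.51 to 0.37; all features 0.01, with 45.7% lower). Neither members nor other features were called (0 of 40 members, beside 0.00% of all features), and 0 members were lower at an unadjusted p under 0.05, beside 2.12%. The largest difference was that of Mybpc2, the fast myosin-binding protein C, at -0.51 ± 0.623 (limma adjusted p = 0.979, 95% interval -1.76 to 0.74). Leaving out single libraries moved the median between -0.13 (without anti-TNF replicate 4) and -0.47 (without isotype replicate 9). It was also -0.47 without anti-TNF replicate 7, -0.45 without anti-TNF replicate 13 and -0.19 without isotype replicate 8.

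In anti-IL-6 against isotype paws 37 members were lower and 3 higher, with a median of -0.67 (range -1.10 to 0.21; all features 0.03, with 60.0% higher). Of the members 0 were called, beside 0.952% of features, and the smallest adjusted p among members was 0.386. That was Tcap, at 73.2, 359.1 and 1124 FPKM (lowest, median and highest) in anti-IL-6 paws against 134.1, 877.0 and 1384 FPKM in isotype paws, a difference of -0.88 ± 0.433. Its groups overlapped, and it was the single member with an unadjusted p under 0.05 (p = 0.0477, limma), beside 2.85% of features called lower by that rule. All 14 fast genes were lower, with a median of -0.75. Of the 7 tested slow genes 4 were lower and 3 higher, with a median of -0.18. The 4 lower ones were Myl2, Myl3, Mybpc1 and Casq2, and the lowest of them was at -0.77, as low as the fast troponins. The 3 higher ones were the slow troponin subunits Tnnc1 at 0.21, Tnnt1 at 0.17 ± 0.319 and Tnni1 at 0.12 ± 0.413 (limma adjusted p = 0.866 for Tnnt1 and 0.933 for Tnni1). Their fast counterparts had Tnnc2 at -0.70 ± 0.471, Tnnt3 at -0.77 ± 0.511 and Tnni2 at -0.69 ± 0.499. Mybpc2 and Actn3 had the largest differences, at -1.10 ± 0.623 and -0.94 ± 0.548.

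In combination against isotype paws 38 members were higher and 2 lower, with a median of 0.22 (range -0.06 to 0.45; all features -0.01, with 46.6% higher). The test called 0 members, beside 0.00% of features, and 0 were higher at an unadjusted p under 0.05, beside 2.55%. Myl2 differed by 0.45 ± 0.629 (95% interval -0.81 to 1.71) and Mb by 0.36 ± 0.462. This median rested on single libraries, being 0.05 without isotype replicate 9, 0.09 without isotype replicate 3, 0.11 without isotype replicate 13, 0.14 without isotype replicate 11, 0.10 without combination replicate 6, 0.11 without combination replicate 1, 0.14 without combination replicate 13 and 0.34 without combination replicate 4. No member separated an antibody arm from isotype without overlap (0 of 40, beside 0% of features in each).

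Within stretches of index numbers shared by 2 groups the signs differed. The median member difference of anti-IL-6 minus isotype was 0.17 in stretch 2, -1.62 in stretch 4 and -0.91 in stretch 5. For anti-TNF minus isotype it was 0.55 in stretch 2, -0.97 in stretch 3 and 0.14 in stretch 5. For combination minus isotype it was 1.24 in stretch 2, -0.08 in stretch 3, -1.60 in stretch 4 and 1.02 in stretch 5. Stretches 2 and 4 hold 1 isotype library each, and stretch 5 holds 1 combination and 1 anti-IL-6 library.

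Whether both antibodies together differed from the sum of the single effects was asked by an interaction contrast (combination minus anti-TNF, minus the difference of anti-IL-6 from isotype). It was above 0 for 39 members and below 0 for 1, with a median of 1.19 (all features -0.05, with 36.6% above 0). Fast genes had a median of 1.30 and slow genes of 0.38. No member was called, beside 0.116% of features, and at an unadjusted p under 0.05 there were 2 members above 0, Tcap at 1.52 ± 0.612 (limma adjusted p = 0.403) and Myh1 at 1.33 ± 0.632 (limma adjusted p = 0.493), beside 2.07% of features. For Tnni1 the contrast was 0.04 ± 0.584. Without mice 2 and 20 the median was 1.45 and again 0 members were called.

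The balance of fast to slow isoforms was described by the log2 ratio of FPKM within a library, which sets both forms against each other in the same paw. In 7 of the 8 pairs the fast gene was above the slow gene in every library. The exception was myosin-binding protein C, where Mybpc1, the slow form that fast fibres also contain, exceeded Mybpc2 in every library (log2 ratio -3.33 to -0.74). Tnni2 over Tnni1 averaged 4.62 ± 1.89 in combination, 3.82 ± 0.853 in anti-IL-6, 4.25 ± 1.16 in anti-TNF and 4.63 ± 1.26 in isotype paws (SD, n = 13 each), and 4.04 ± 0.880 in no CIA paws (SD, n = 4). No p is given for these ratios, and every pair overlapped between the groups of every comparison. For anti-IL-6 minus isotype 7 of the 8 pairs were lower, with a median difference of -0.53. The pair that went the other way was Mylpf over Myl2, at 0.12 ± 0.407 (SE). The 3 troponin pairs had the largest differences, with Tnnt3 over Tnnt1 at -0.94 ± 0.404 (SE), Tnnc2 over Tnnc1 at -0.92 ± 0.416 and Tnni2 over Tnni1 at -0.82 ± 0.422. Over the 8 pairs the median difference was -0.28 for anti-TNF minus isotype and -0.01 for combination minus isotype. For isotype minus no CIA it was 0.25. The ratios also differed between libraries with little and much muscle signal. In no CIA paws Tnnt3 over Tnnt1 was 3.56 in replicate 1 (Ckm 672.0 FPKM) and 5.52 in replicate 3 (Ckm 3147 FPKM). In anti-TNF replicate 4, with the lowest Ckm of its group, Tnnt3 over Tnnt1 was 2.53. Mylpf over Myl2 was 5.55 there, above the group median of 4.50. Whether a lower ratio stands for other fibres or for less muscle signal was not tested.

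Combination replicate 6 had the most fast-shifted profile. Its Tnni2 level was 4752 FPKM, the highest of all libraries, while its Tnni1 level was 7.35 FPKM, the lowest, so that the log2 ratio was 9.34 beside a group median of 3.85. The same library was highest in all 8 ratios, with 9.24 for Tnnt3 over Tnnt1, 9.88 for Tnnc2 over Tnnc1 and 11.90 for Myh4 over Myh7. It was close to the next library for Mybpc2 over Mybpc1, at -0.74 beside -0.81 in isotype replicate 10. Isotype replicate 6 had 7.15, 6.98, 7.83 and 10.43 for Tnni2 over Tnni1, Tnnt3 over Tnnt1, Tnnc2 over Tnnc1 and Myh4 over Myh7. These were the highest values of the isotype group. In the other pairs another isotype library was higher. Mylpf over Myl2 was 5.32 beside 6.38 in isotype replicate 11, and Casq1 over Casq2 was 6.59 beside 7.21 in isotype replicate 10. Combination replicate 1 stood between combination replicate 6 and isotype replicate 6 for Tnni2 over Tnni1, at 7.24, and was kept. Without combination replicate 6 and isotype replicate 6, Tnni2 over Tnni1 averaged 4.22 ± 1.30 in combination and 4.43 ± 1.05 in isotype paws (SD, n = 12 each). The median difference over the 8 pairs was then -0.40 for anti-IL-6 minus isotype, -0.16 for anti-TNF minus isotype, -0.20 for combination minus isotype and 0.05 for isotype minus no CIA. In anti-IL-6 minus isotype again 7 pairs were lower, with Tnnt3 over Tnnt1 at -0.75 ± 0.372 (SE), Tnnc2 over Tnnc1 at -0.70 ± 0.377 and Tnni2 over Tnni1 at -0.61 ± 0.385. Mylpf over Myl2 was again higher, at 0.18 ± 0.422. For combination minus no CIA the median was 0.13 with all libraries and -0.16 without these ones.

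**Figure D4:**
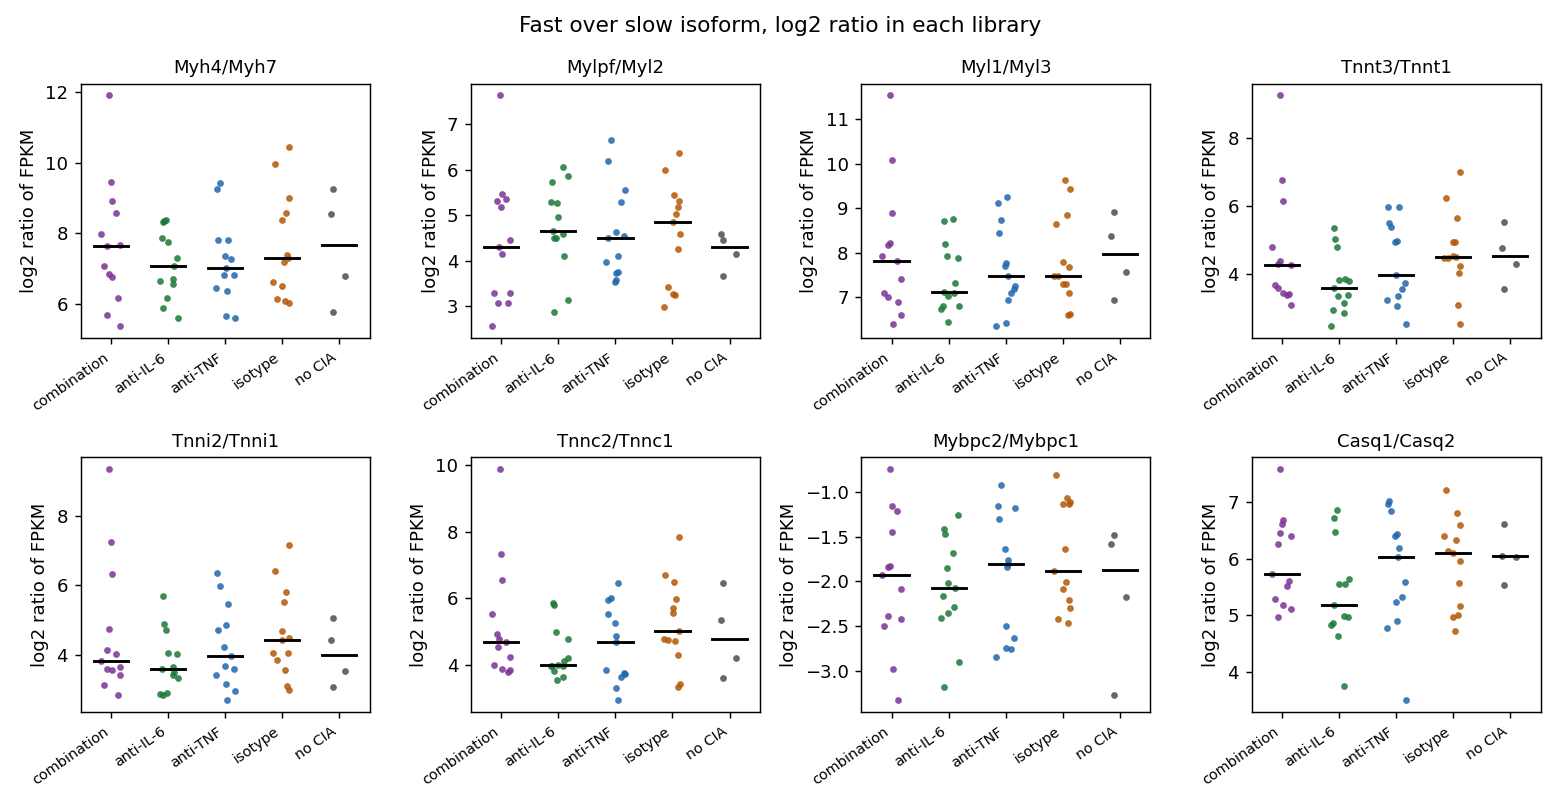
Log2 ratio of the fast over the slow isoform (vertical axis) for 8 pairs in each library by group, with bars at the medians. Combination replicate 6 is the highest point of every panel, at 9.34 for Tnni2/Tnni1, and the Mybpc2/Mybpc1 panel lies below 0 throughout.

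Of the summed FPKM of Myh1, Myh2 (the IIa heavy chain), Myh4 and Myh7, Myh1 held a mean of 66.5%, Myh2 21.8%, Myh4 11.6% and Myh7 0.0727%. Myh1 was above 51.2% in every library. The Myh4 share ran from 3.24% (anti-TNF replicate 1) to 28.1% (isotype replicate 10), and its group means lay between 10.8% in no CIA and 12.1% in anti-IL-6 paws. The split is uncertain because these genes resemble each other: 26.7% of the 50-base windows of Myh1, 26.9% of Myh2 and 18.9% of Myh4 occur in another gene, as do 22.2% of those of Myh7, which are found in Myh6. For the light chain Myl1 23.4% occur in Mylf-ps.

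Other muscle genes were counted from fixed lists. In anti-IL-6 against isotype paws 0 of 28 further sarcomere and triad genes were called, with 26 lower and 2 higher and a median of -0.54, and 0 of 11 muscle metabolism genes were called, all 11 being lower with a median of -0.55 (over all features 0.952% were called and 60.0% were higher, with a median of 0.03). In anti-IL-6 against no CIA paws the sarcomere and triad genes had 27 lower and 1 higher, with a median of -1.21 and again 0 calls, beside 0.558% of features called and 38.0% lower. In combination against isotype paws 26 of the 28 and all 11 metabolism genes were higher, by medians of 0.16 and 0.20, beside 46.6% of features, and 0 were called. In anti-TNF against isotype paws 27 of the 28 and all 11 were lower, both with a median of -0.21, beside 45.7% of features. Of 7 developmental and cardiac isoforms 6 were tested and 0 called in these comparisons, beside at most 0.952% of features. In anti-IL-6 against no CIA paws 3 of the 6 were higher and 3 lower. Heart troponin Tnni3 was higher than in no CIA paws by 0.46 in isotype, 0.54 in anti-TNF, 0.56 in anti-IL-6 and 0.53 in combination. Its smallest adjusted p there was 0.119 (limma, anti-IL-6). The embryonic myosin Myh3, a marker of forming or regenerating fibres, averaged 1.40 ± 0.971 in combination, 0.994 ± 0.646 in anti-IL-6, 0.935 ± 0.780 in anti-TNF and 1.15 ± 0.729 FPKM in isotype paws, against 1.22 ± 0.181 FPKM without CIA. Of 3 other slow genes 0 were called in any comparison, beside at most 0.952% of features. In anti-IL-6 against no CIA and against isotype paws alike, 1 was lower and 2 higher. Atp2a2, the calcium pump of slow fibres that other tissues also use, averaged 42.8 ± 5.21, 48.6 ± 5.48, 44.8 ± 6.45, 46.2 ± 3.69 and 42.2 ± 5.60 FPKM in the same order. The tropomyosin gene Tpm3, also used outside muscle, averaged 40.9 ± 5.99, 42.1 ± 9.24, 42.2 ± 4.34, 38.5 ± 3.80 and 33.9 ± 2.87 FPKM. Myoz2, a Z-disc protein of slow fibres and heart, averaged 79.9 ± 56.0, 47.2 ± 36.95, 62.6 ± 64.1, 69.4 ± 54.6 and 120.5 ± 44.2 FPKM. In anti-IL-6 against no CIA paws Myoz2 differed by -1.76 ± 0.714 (limma adjusted p = 0.129), Atp2a2 by 0.20 ± 0.0953 (limma adjusted p = 0.162) and Tpm3 by 0.28 ± 0.110 (limma adjusted p = 0.124).

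Ckm was set against 7 single genes of other tissues over the 56 libraries, each p coming from 100000 permutations, or from all permutations where fewer than 10 libraries were used, and adjusted over the 7. The relations share library depth and the total to which FPKM is scaled. Ckm was positively related to the adipocyte gene Plin1 (r = 0.536, rho = 0.528, adjusted permutation p = 7e-05; the unadjusted p of 1e-05 is the smallest that this number of permutations can give) and to the smooth muscle myosin Myh11 (r = 0.407, rho = 0.373, adjusted permutation p = 0.00272). Without the 2 libraries farthest from the median of Ckm, r was 0.514 for Plin1 and 0.297 for Myh11. Within the 4 immunised groups r for Plin1 lay between 0.224 in anti-TNF and 0.742 in combination paws, and it passed the test in combination paws alone (adjusted permutation p = 0.034). Within stretches of index numbers r for Plin1 lay between 0.318 and 0.88 and passed in none of the 5. The 4 no CIA libraries were too few for such a test.

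Relations in the other direction were found with Col1a1, the type I collagen of fibroblasts and osteoblasts (r = -0.538, rho = -0.549, adjusted permutation p = 0.000105), with Pecam1 of endothelium (r = -0.477, rho = -0.479, adjusted permutation p = 0.00049) and with S100a8 of neutrophils (r = -0.447, rho = -0.443, adjusted permutation p = 0.000997). Without the 2 farthest libraries r was -0.564, -0.497 and -0.419 for these genes in that order. Within single groups, Col1a1 had r between -0.438 and -0.624 and passed the test in none of the 4. For Pecam1 r lay between -0.206 in combination and -0.6 in anti-TNF paws. For S100a8 it lay between -0.017 in combination and -0.683 in anti-TNF paws, with -0.268 in isotype paws. Permutations over all libraries also take in differences between groups. No relation passed the test for the red cell gene Hba-a1 (r = 0.189, rho = 0.198, adjusted permutation p = 0.192) or the keratin Krt14 of epidermis (r = -0.00235, rho = -0.0733, adjusted permutation p = 0.986). Within groups 1 of the 7 relations passed in combination paws and 0 passed in anti-IL-6, anti-TNF and isotype paws each, with 13 libraries a group. Within stretches of index numbers Myh11 passed in stretch 1 (r = 0.976 over 6 libraries, adjusted exact permutation p = 0.0389), Col1a1 and Pecam1 passed in stretch 5 (r = -0.732 and -0.707, adjusted permutation p = 0.0275 each), and 0 passed in each of the other three.

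**Figure D5:**
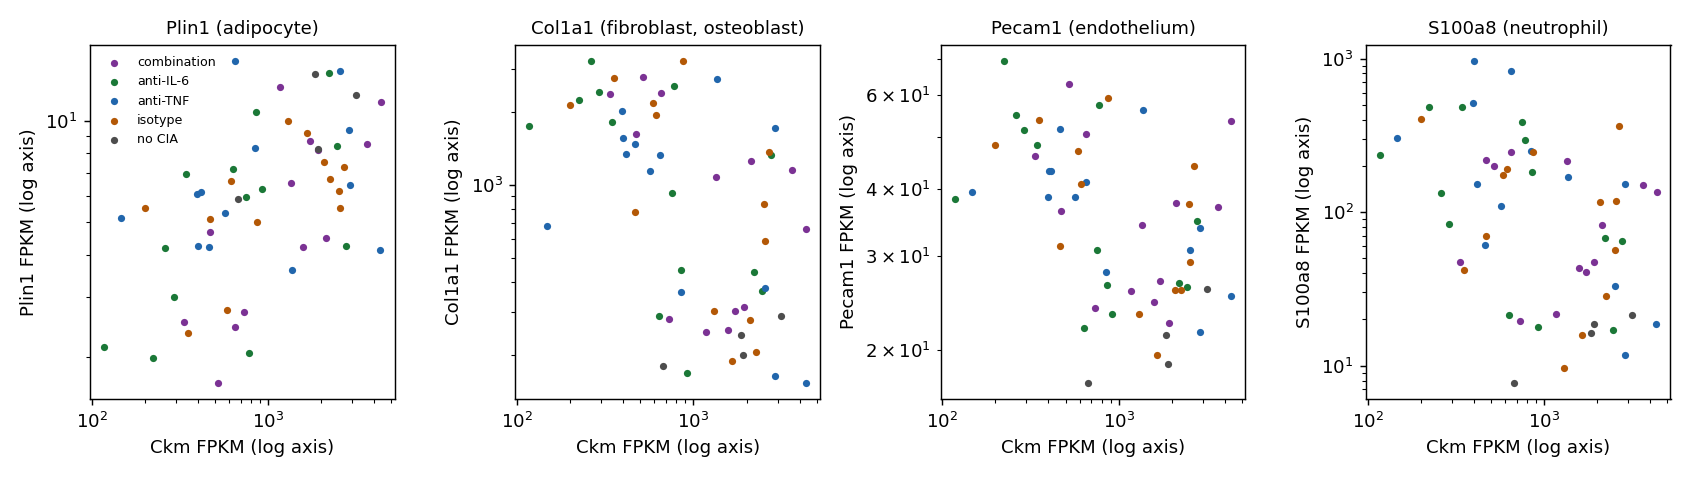
FPKM of Plin1, Col1a1, Pecam1 and S100a8 (vertical axes, log scale) against FPKM of Ckm (horizontal axes, log scale), with 1 point per library coloured by group. Plin1 is higher where Ckm is higher (r = 0.536), and Col1a1, Pecam1 and S100a8 run against it (r = -0.538, -0.477 and -0.447).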

How the data were processed

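The authors' deposited matrix holds 1 column of FPKM per library. No header names this unit, which was inferred from the values. Per the labels' protocols, RNA came from an RNeasy Mini kit, libraries were TruSeq Stranded mRNA and paired-end reads came from a NovaSeq instrument. DESeq2 is named by the submitters' processing notes, while aligner, build and annotation are not given in the sources used. Low values of single-exon genes step by what 1 fragment is worth, which gave the depth of each library (mean 46.9 ± 3.62 M fragments, SD, n = 56). Between 74.8% and 81.1% of these values were whole multiples (tolerance 0.05 step), so counts were not rebuilt.

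Values were tested as log2(FPKM + 1) with limma 3.58.1 (R 4.3.3; trended, robust) in 1 fit over 56 libraries that estimated each group's mean (residual degrees of freedom 51). A feature entered where the mean FPKM of some group reached 1 (14700 features, among them 40 members). Tests were two-sided, with Benjamini-Hochberg adjustment over all of them and a threshold of 0.05. Differences on this scale understate changes of low genes. The fit was tested on simulated data. Permutation tests, ratios and figures used Python 3.11.15, matplotlib 3.10.9, scipy 1.17.1, pandas 2.3.3 and numpy 2.4.6. Groups were taken from the treatment labels, and replicate numbers are in the order of deposition. The limma p-values set a difference between group means against the spread between mice of the same group. Permutation p-values refer to the pairing of 2 genes over libraries. Coordinates of promoters are those of RefSeq, and identifiers were matched to GENCODE M21.

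Members and gene lists were chosen with earlier results of these data known. Named genes are the fixed fibre type pairs, a fixed set of members of each role, and some of the 3 largest and 3 smallest differences in each comparison. Others named (Tcap, Tpm1, Mybpc1 and Myl3 among the levels) were chosen after their values were seen or describe a count of few genes. Alternatives were pseudocounts of 0.1 and 10, no filter, the compared groups alone, median-of-ratios scaling, index run as a covariate and leaving out each library. Leaving out mice 2 and 20, or combination and isotype replicate 6, was added after seeing the data. A gene planned for the relations with Ckm is not reported here.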

Additional observations from a re-analysis of the deposited data

Results flagged for a closer look

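Of 50 values examined for a library far from the rest of its group, 1 stood out: Tnni1, the slow inhibitory troponin subunit, at 178.9 FPKM in no CIA replicate 2. The other 3 no CIA libraries had 108.3, 106.7 and 99.5 FPKM, and the gap to the nearest of them was 0.889 of the group's range. Chance marks about 1 in 20 groups by this criterion. The cause was not tested.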

How the results depend on the processing

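In all 8 tests across features, 0 members were called under every alternative and with any single library left out (lowest and highest count 0 and 0). Over the alternatives other than single libraries, the smallest adjusted p among members was 0.0509, in isotype against no CIA with index run as a covariate, where 2744 features were called and which rests on 2 isotype libraries. Index run as a covariate put the member median at -0.87 in combination against no CIA and at 0.10 in combination against isotype. No paired analysis was possible because replicate numbers only follow the order of deposition.

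Signs turned for some members whose differences in the main fit were smaller than their SE. In isotype against no CIA, Casq2 was 0.0089 with pseudocount 10 and 0.55 with index run, beside -0.02 in the main fit. With index run it was 0.45 in anti-TNF and 0.43 in anti-IL-6 against no CIA, beside -0.23 and -0.24 in the main fit. With index run, Tnni1 was -0.037 in anti-TNF against isotype and -0.045 in the interaction, and Ckm -0.033 in combination against isotype. Without mice 2 and 20, Tnnt1 was 0.0096 in anti-TNF against isotype. With single libraries left out, isotype against no CIA ran from -0.92 to 0.30 for Mybpc2, -0.59 to 0.14 for Casq1 and -0.20 to 0.091 for Casq2. Combination against no CIA ran from -0.59 to 0.30 for Pvalb, -0.12 to 0.17 for Casq2 and -0.44 to 0.29 for Casq1. Anti-TNF against isotype ran from -0.031 to 0.25 for Tnni1, -0.23 to 0.038 for Myl3 and -0.12 to 0.085 for Tnnt1. Combination against isotype ran from -0.010 to 0.15 for Casq2, -0.30 to 0.15 for Mybpc2, -0.28 to 0.13 for Actn3 and -0.018 to 0.39 for Acta1. The interaction ran from -0.091 to 0.33 for Tnnt1 and -0.12 to 0.27 for Tnni1.

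Of the 7 relations with Ckm, 5 passed over all libraries, against 1 within combination, 0 within anti-IL-6, 0 within anti-TNF and 0 within isotype, and 1, 0, 0, 0 and 2 within index runs 1 to 5, which hold fewer libraries. For Krt14 r was 0.0213 without the 2 farthest libraries, 0.359 in anti-IL-6, 0.0249 in isotype, 0.224 in run 1 and 0.41 in run 4. For Myh11 r was -0.116 in anti-TNF and -0.0477 in run 5, and for Hba-a1 -0.158 in anti-TNF, -0.279 in run 1 and -0.306 in run 5. The cause was not tested. The SE of a member's difference had a median of 0.71 against 4 no CIA mice and 0.48 against isotype, which limits what these groups can show.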
